A study of Mus musculus with 6 samples.

Results

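The integrated stress response (ISR) is the set of changes a cell makes when the translation initiation factor eIF2 is phosphorylated on its α subunit, and 32 genes of this response were examined in mouse macrophages. They were chosen by symbol as genes of the transcription factor ATF4 and its surroundings, and the symbols matched 33 of the 54532 rows of the deposited gene table. In the ISR a family of kinases senses amino acid shortage, stress of the endoplasmic reticulum, double-stranded RNA or lack of haem, and each phosphorylates eIF2α. General translation then slows while the mRNA of Atf4 is translated more, and ATF4 protein, with partners of the C/EBP family, switches on genes for amino acid synthesis and uptake, stress effectors and feedback regulators. Neither eIF2α phosphorylation nor ATF4 protein was measured here, so the values describe transcripts alone.

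By their labels the cells were primary peritoneal macrophages, drawn 4 days after thioglycollate and purified by 6 h of adherence. Before RNA was taken, the cells of all 6 libraries received lipopolysaccharide (10 ng/mL) together with interferon-γ (2 ng/mL) for 8 h, so no library shows the unstimulated level of any gene. The 3 control libraries are called shControl in the titles and WT in the genotype field. The other 3 are called SAHH-KO in the titles and SAHH knockdown in the genotype field, and the name SAHH-KO is kept here. SAHH is S-adenosylhomocysteine hydrolase, the product of Ahcy, which breaks down S-adenosylhomocysteine. Strain, sex and age are not in the labels. Whether replicates are separate animals or cultures is not in the labels either, and p-values here reflect only how far these libraries differ, which may be technical variation.

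Ahcy read 25.8, 22.6 and 24.4 FPKM in control and 5.51, 5.50 and 6.23 FPKM in SAHH-KO (limma adjusted p = 1.44e-06), and 66.0% of its 50-base words also occur in Gm4737, a copy that was lower as well (adjusted p = 4.10e-06). FPKM are reads scaled to the length of the gene and the size of the library. Between 15540442 and 17748745 reads were assigned to genes in a library, and a tested ISR gene had at least 32 reads in each library. Of 8 macrophage markers 7 passed the filter described below, and 4 of them were higher in SAHH-KO, namely Adgre1 (2.09-fold), Fcgr1 (4.79-fold), Itgam (1.43-fold) and Cd14 (1.17-fold), and none was lower. Over all tested genes 26.4% were called higher and 26.8% lower, which applies to the other counts in this paragraph too. The summed level of the markers was 8344 to 8645 FPKM in the controls and 9320 to 10590 FPKM in SAHH-KO. Mertk, the eighth, had 1 read in each of 2 libraries and 0 in the others. Of the markers of neutrophils, B cells, T and NK cells, mast cells and eosinophils, mesothelium and fibroblasts, and dendritic cells, S100a8 (4.13 to 5.10 FPKM in control and 0 to 0.473 FPKM in SAHH-KO) and Lck (2.29 to 2.53 against 3.10 to 4.85 FPKM) were the only members that passed that filter. S100a9, Ly6g, Cd3d, Cd3g, Cd8a and Ms4a1 had 0 reads in all 6 libraries. In the same libraries 12 of 12 interferon-stimulated genes were higher and 12 of 12 proliferation genes lower in SAHH-KO, with summed levels of 369 to 403 against 2774 to 3009 FPKM and of 448 to 490.1 against 131 to 178 FPKM. The part of these changes, and of those of the macrophage markers, in the results below was not tested. Mertk, a marker of mature macrophages, was nearly absent while the other 7 macrophage markers passed the filter, and the control libraries expressed the proliferation genes. Whether the cells are as labelled was not tested. In bulk RNA, fewer cells with a transcript and less of it per cell cannot be told apart.

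Most ISR genes were higher in SAHH-KO. Of the 32 genes 31 were tested, and 28 rose, 1 fell (Eif2ak3, the kinase PERK) and 2 amino acid transporter genes, Slc1a5 and Slc38a2, did not pass the test. The largest ratios of group means were those of Stc2 (9.64-fold), Aldh1l2 (8.52-fold), Trib3 (6.03-fold), Slc6a9 (5.97-fold) and Pycr1 (5.94-fold). Stc2 and Pycr1 passed the filter described below only through SAHH-KO, so their rise was fixed in advance. Both are counted among the 28 and in the medians of this paragraph, and the next paragraph gives the values without them. The feedback and stress effector genes had a median ratio of 3.65 and those of amino acid synthesis 2.55. The median was 1.96 for the transcription factors and 1.49 for the transporters.

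The test was limma on log2(FPKM + 1) over the 10362 genes with at least 1 FPKM in at least 3 libraries, and a gene was called where its p, adjusted by Benjamini-Hochberg, was below 0.05. Over all these genes 53.3% were called, 26.4% as higher and 26.8% as lower, so a call alone is common in this comparison. These shares apply to the counts by role below as well. Among the ISR genes 18 rose by at least 2-fold and 13 by at least 3-fold, which 9.05% and 4.53% of all tested genes did. The median log2 fold change of the 31 genes was 1.18, against -0.0093 over all tested genes. In the ranking of all tested genes by log2 fold change, 23 of the 31 lay at or above the 90th percentile, and the lowest, Eif2ak3, lay at the 18th. Pycr1 and Stc2 were below 1 FPKM in every control library and passed the filter only through SAHH-KO, so they had to differ. Without them 26 of 29 rose, with a median of 1.13, of which 16 rose by at least 2-fold and 11 by at least 3-fold, and 21 of the 29 lay at or above the 90th percentile. The median ratio of the feedback and stress effector genes without Stc2 was 3.597, and that of the synthesis genes without Pycr1 was 2.44. Vldlr (chr19:27216484-27254231), a lipoprotein receptor gene, had 0 reads in all libraries, and a second table row named Ddit3, an identifier of 105 bases within the main gene, was also at 0.

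The values depend in part on how libraries are scaled. The deposited values rest on median-of-ratios library sizes. Rescaled to TPM, or by the reads assigned to genes, the median of all tested genes moved to -0.16 and -0.14 on the log2 scale, and the shares of all tested genes called higher and lower became 19.4% and 37.6% with TPM and 19.6% and 37.7% with assigned reads. Under each of these scalings 27 ISR genes were called higher and 1 lower, with a median log2 fold change of 1.03.

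**Figure D1:**
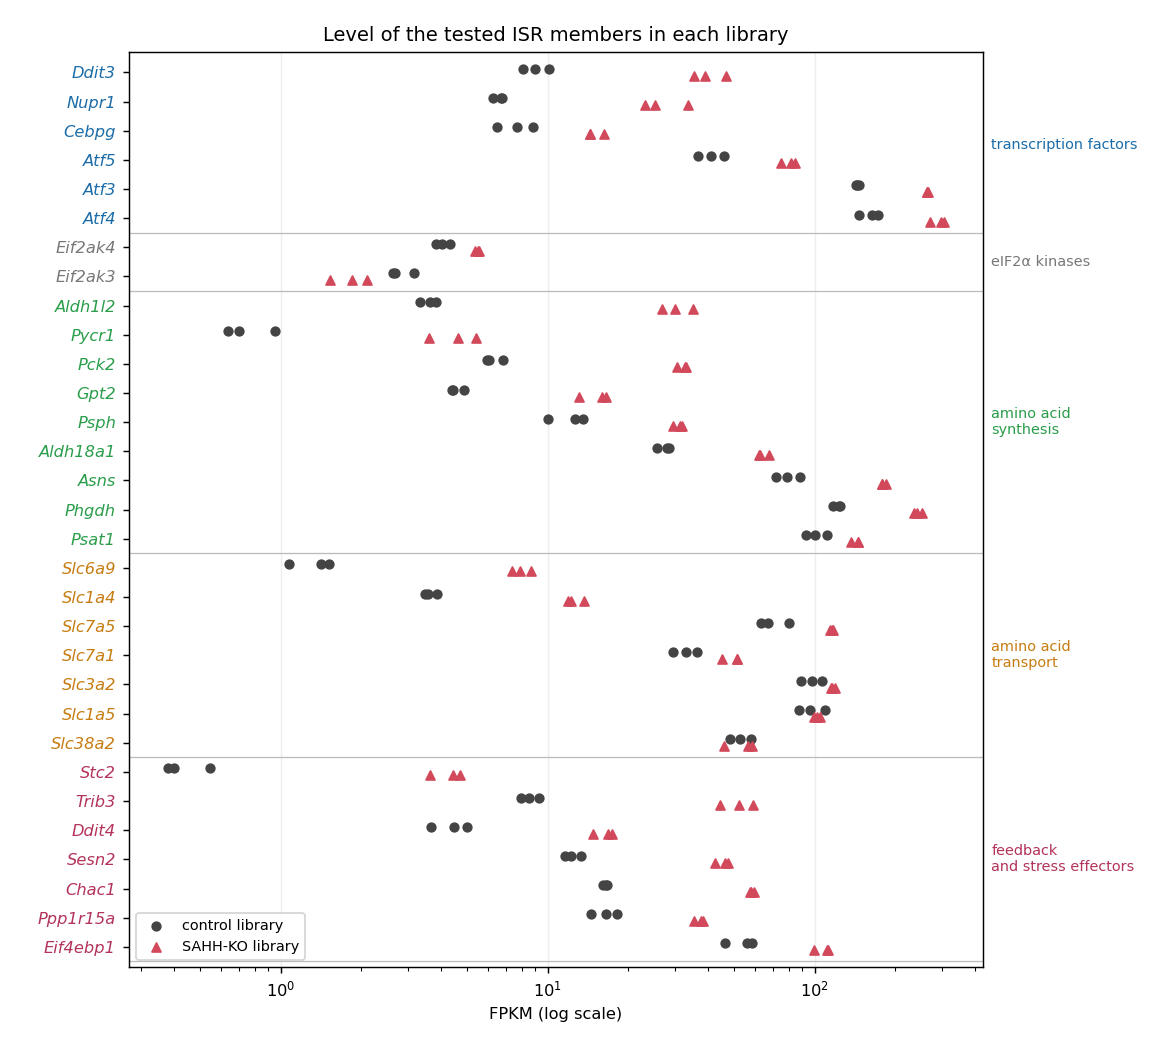
Level of the 31 tested ISR genes in each library in FPKM on a log scale, with control libraries as grey circles and SAHH-KO libraries as red triangles, grouped by role. The circles and triangles of Slc1a5 and Slc38a2 overlap, those of Eif2ak3 stand apart with the triangles lower, and for the other 28 genes every triangle lies to the right of every circle.

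The groups did not overlap for 29 of the 31 genes, where 62.3% of all tested genes had groups that did not overlap. No SAHH-KO library was the highest throughout. Among the 28 genes that rose, SAHH-KO replicate 1 was the highest of its group for 12, replicate 2 for 6 and replicate 3 for 10, and they were the lowest for 10, 11 and 7. Spread within groups was close to that of other genes, with a median coefficient of variation of 9.23% in control and 6.16% in SAHH-KO, against 10.8% and 7.06% over the 9648 tested genes with both means at 1 FPKM or more.

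The promoters of some of these genes hold the core of the C/EBP-ATF response element, the composite site that ATF4 and its C/EBP partners are known to bind. RefSeq promoters of GRCm38.p6, each running from 250 bases before to 50 after the annotated start, were found for 28 of the 32 genes and searched for the 8 letters TGATGNAA on both strands, the reverse being TTNCATCA. The core occurred in 9 of the 28 genes, or 32.1%. Over all 27025 genes with a promoter 4.51% held it, and over the 7549 tested genes with one 2.73%. The set was chosen around ATF4, so its larger share describes that choice and is not a result of these data. Of the 9, Vldlr was not expressed and the other 8 (Asns, Atf3, Chac1, Nupr1, Pck2, Pycr1, Slc1a4 and Trib3) rose 1.82-fold to 6.03-fold, with a median of 3.86, or 3.54 without Pycr1, which passed the filter only through SAHH-KO. The 19 tested genes with a promoter and no core in the window lay between 0.648 and 9.64 times control, with a median of 2.00, and the 18 without Stc2, which passed in the same way, reached 5.97 with a median of 1.98. The genes without a core include Atf4 itself and the kinase genes Eif2ak3 and Eif2ak4, and the difference between the medians was not tested. Such a match is a description of the letters and does not show that a factor was bound. The cores of 6 of the 8, those with the smallest p, are shown because they are what these promoters have in common. Each is given 5′ to 3′ on the strand of its gene, with 10 bases on either side and the core in capitals.
Pck2: gccttcaaagTTACATCAgtatcttaca
Chac1: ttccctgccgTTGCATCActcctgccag
Trib3: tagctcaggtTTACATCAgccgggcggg
Slc1a4: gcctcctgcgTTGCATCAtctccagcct
Nupr1: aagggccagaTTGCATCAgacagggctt
Asns: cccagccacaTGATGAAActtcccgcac
These windows are chr14:55540153-55540180 and chr2:119351039-119351066 on the plus strand, and chr2:152344029-152344056, chr11:20332700-20332727, chr7:126625563-126625590 and chr6:7693215-7693242 on the minus strand. In 5 of them the core is read on the strand opposite to the gene, and in Asns on the strand of the gene. Counted from the RefSeq start, the core of Pck2 began at base -103, that of Chac1 at -193, that of Nupr1 at -110 and that of Asns at -23. In Slc1a4 it began at -4 and ran across the start, and in Trib3 at 15 bases after it. Atf3 and Pycr1 held it at -110 and -103.

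Longer stretches are given for Pck2 and Chac1, the genes of the 8 with the smallest p, so that the surroundings of the core can be read. They end before the start of the gene in both RefSeq and the deposited table, and the core is again in capitals. The stretch of Pck2 is chr14:55540016-55540265 (250 bases, plus strand) and that of Chac1 chr2:119350992-119351228 (237 bases, plus strand).
Pck2: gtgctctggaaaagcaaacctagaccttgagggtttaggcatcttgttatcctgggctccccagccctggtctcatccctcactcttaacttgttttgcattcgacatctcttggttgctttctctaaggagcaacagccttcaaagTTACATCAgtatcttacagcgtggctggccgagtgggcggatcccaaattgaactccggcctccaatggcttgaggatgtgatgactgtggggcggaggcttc
Chac1: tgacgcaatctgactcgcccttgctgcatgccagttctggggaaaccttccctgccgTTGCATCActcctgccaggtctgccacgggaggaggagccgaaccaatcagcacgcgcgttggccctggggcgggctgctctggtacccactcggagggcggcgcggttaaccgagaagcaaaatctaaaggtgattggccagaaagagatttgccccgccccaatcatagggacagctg

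The kinases that start the response did not share a direction. PERK, the kinase that senses unfolded proteins in the endoplasmic reticulum, is encoded by Eif2ak3 (ENSMUSG00000031668, chr6:70844515-70905245, GRCm38), which read 3.16, 2.68 and 2.63 FPKM in control and 1.53, 2.12 and 1.84 FPKM in SAHH-KO. All SAHH-KO libraries lay below all controls, a fall to 0.648 of the control mean (log2 fold change -0.44, SE 0.112, limma adjusted p = 0.0111). With TPM scaling its log2 fold change was -0.69, and without the filter its limma adjusted p was 0.0478. Eif2ak4 (ENSMUSG00000005102, chr2:118388618-118475234), the gene of GCN2, which senses uncharged tRNA, read 4.01, 4.30 and 3.83 FPKM in control and 5.35, 5.49 and 5.52 FPKM in SAHH-KO. It rose 1.35-fold without overlap (log2 fold change 0.36, SE 0.0812, adjusted p = 0.00642). The rise of Eif2ak4 was smaller with TPM scaling (0.25, limma adjusted p = 0.0462) and with assigned-read scaling (0.22, limma adjusted p = 0.042). The other kinases of eIF2α come from a wider list of eIF2 genes. Eif2ak2, which encodes PKR, the sensor of double-stranded RNA and itself an interferon-inducible gene, went from 11.8, 14.5 and 13.1 FPKM to 43.2, 47.1 and 42.2 FPKM, a 3.36-fold rise (adjusted p = 4.02e-06). Eif2ak1, the gene of the haem-regulated kinase, named after its values were seen, lay at 8.84 to 9.29 FPKM in control and 9.30 to 9.55 FPKM in SAHH-KO (adjusted p = 0.516).

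All 6 transcription factor genes rose. Atf4 (ENSMUSG00000042406, chr15:80255184-80257541), the central factor of the response, read 147, 172 and 164 FPKM in control and 271, 305 and 298.5 FPKM in SAHH-KO, so it was abundant in both groups and 1.81-fold higher in SAHH-KO (log2 fold change 0.85, SE 0.0876, limma adjusted p = 9.39e-05). Atf3, a stress-induced factor of the same bZIP class that also dampens Toll-like receptor responses, stood nearly level with it, at 143, 147 and 144 FPKM against 264, 266 and 262 FPKM. Its 1.82-fold rise came with a small spread, the control SD being 1.74 and the SAHH-KO SD 1.81 FPKM. Atf5, a relative of ATF4 linked to mitochondrial stress, rose 1.96-fold, from 45.6, 36.6 and 40.8 to 74.9, 81.6 and 84.3 FPKM. The largest ratios belonged to factors with low control levels. Ddit3 (ENSMUSG00000025408, chr10:127290774-127296288) encodes CHOP, which acts when stress persists, and it went from 10.1, 8.12 and 8.98 FPKM to 46.4, 35.5 and 38.8 FPKM (4.43-fold, log2 fold change 2.03, SE 0.119, adjusted p = 4.96e-06). Nupr1, a small stress-inducible nuclear protein gene, went from 6.22, 6.75 and 6.67 FPKM to 33.6, 25.3 and 23.2 FPKM, a 4.18-fold rise in which SAHH-KO replicate 1 stood above the other libraries of its group. Cebpg, the gene of C/EBPγ, a partner of ATF4, was 1.97-fold higher, at 6.49, 8.79 and 7.65 FPKM against 16.3, 14.5 and 14.4 FPKM.

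**Figure D2:**
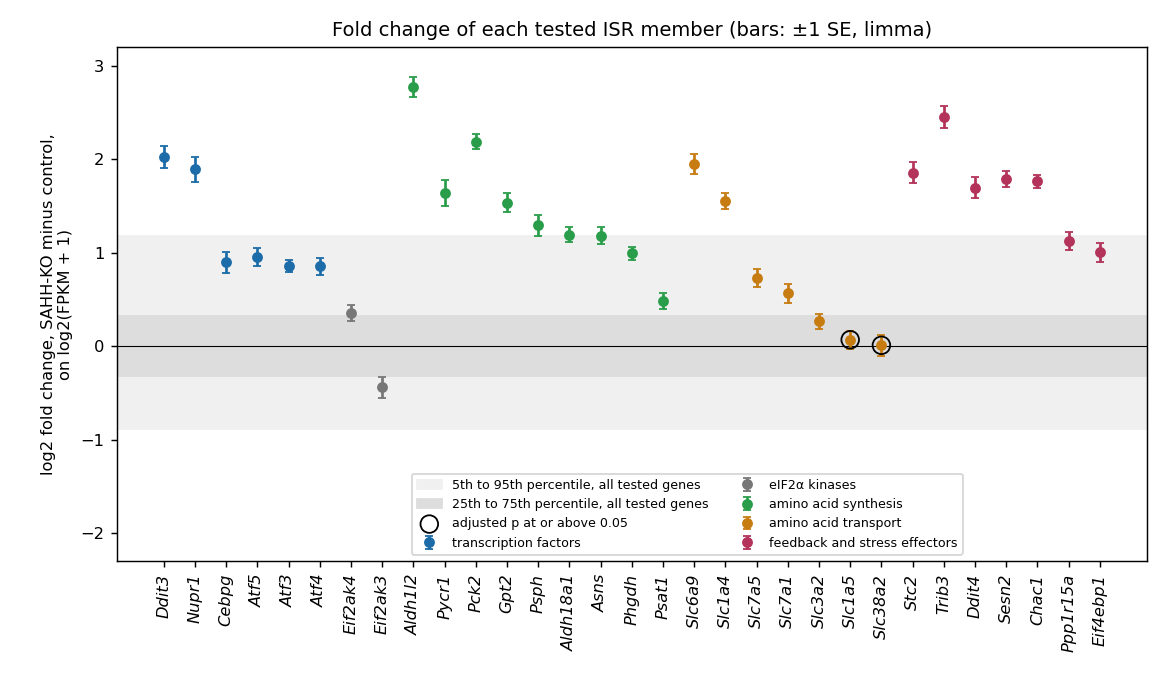
Log2 fold change of each tested ISR gene, SAHH-KO minus control on the log2(FPKM + 1) scale, as points with 1 SE from limma, coloured by role and ordered by ratio of means within a role. Grey bands span percentiles of all tested genes, the wider one the 5th to the 95th (-0.89 to 1.18) and the narrower one the 25th to the 75th (-0.32 to 0.32), and circles mark Slc1a5 and Slc38a2, whose adjusted p was at or above 0.05.

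All 9 genes of amino acid synthesis and linked mitochondrial metabolism rose, by 1.40-fold to 8.52-fold. Without Pycr1, which passed the filter only through SAHH-KO, the other 8 spanned the same range. Asparagine synthetase, encoded by Asns (ENSMUSG00000029752, chr6:7675169-7693254), is a classical target of ATF4. It read 71.4, 87.8 and 79.0 FPKM in control and 185, 179 and 179.5 FPKM in SAHH-KO, 2.28-fold higher (log2 fold change 1.18, SE 0.0885, limma adjusted p = 1.72e-05). The serine pathway, which makes serine from a glycolytic intermediate, rose at each of its steps but unevenly. Phgdh, its first enzyme, went from 125, 117 and 123 FPKM to 252, 236 and 241 FPKM (2.00-fold). Psat1, the second, went from 93.2, 112 and 101 FPKM to 137, 146 and 145 FPKM, the smallest rise of the synthesis genes (1.40-fold, adjusted p = 0.00170). Psph, the last, was the least abundant of the pathway and rose 2.55-fold, from 10.1, 13.6 and 12.6 FPKM to 31.9, 31.2 and 29.5 FPKM. Reads of Phgdh may be split with Gm7901, which holds 38.3% of its 50-base words and was itself counted, with a control level of 19.1 ± 1.62 FPKM and a SAHH-KO level of 36.4 ± 0.971 FPKM (SD, n = 3). Exons of Cct6a, on the other strand, cover 10.4% of the exon bases of Psph, and Cct6a was lower in SAHH-KO (102.1 ± 9.18 against 71.3 ± 4.64 FPKM, adjusted p = 0.00199).

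Both proline synthesis genes of the set were higher in SAHH-KO, but Pycr1 passed the filter only through SAHH-KO and so had to differ. Aldh18a1, which makes the precursor of proline and ornithine from glutamate, read 28.6, 27.9 and 25.7 FPKM in control and 67.6, 62.3 and 61.6 FPKM in SAHH-KO (2.33-fold, limma adjusted p = 9.25e-06). Pycr1, the mitochondrial enzyme of the last step, rose from 0.956, 0.636 and 0.697 FPKM to 5.38, 3.61 and 4.61 FPKM, a ratio of 5.94. Its log2 fold change was 1.64 with the pseudocount of 1 and 2.57 with voom on the recovered reads, which uses a far smaller offset. Gpt2, the mitochondrial alanine aminotransferase, was 3.33-fold higher, at 4.40, 4.86 and 4.43 FPKM against 16.5, 13.1 and 15.9 FPKM. The enzymes that handle mitochondrial one-carbon units and phosphoenolpyruvate stood out. Aldh1l2 (ENSMUSG00000020256, chr10:83487450-83534140), which oxidises the formyl group of mitochondrial folate, rose from 3.61, 3.83 and 3.33 FPKM to 35.0, 26.7 and 30.1 FPKM. Its log2 fold change of 2.78 (SE 0.109, adjusted p = 6.30e-07) was the largest of the ISR genes and the 58th largest of all tested genes. D10Wsu102e, on the other strand, overlaps 14.1% of its exon bases and was at 0.588 FPKM or less in each library. Pck2, the mitochondrial phosphoenolpyruvate carboxykinase gene, went from 6.82, 6.03 and 5.93 FPKM to 32.8, 30.6 and 32.99 FPKM (5.13-fold, log2 fold change 2.19, SE 0.0833, adjusted p = 6.06e-07). In both genes the lowest SAHH-KO library was over 4 times the highest control.

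**Figure D3:**
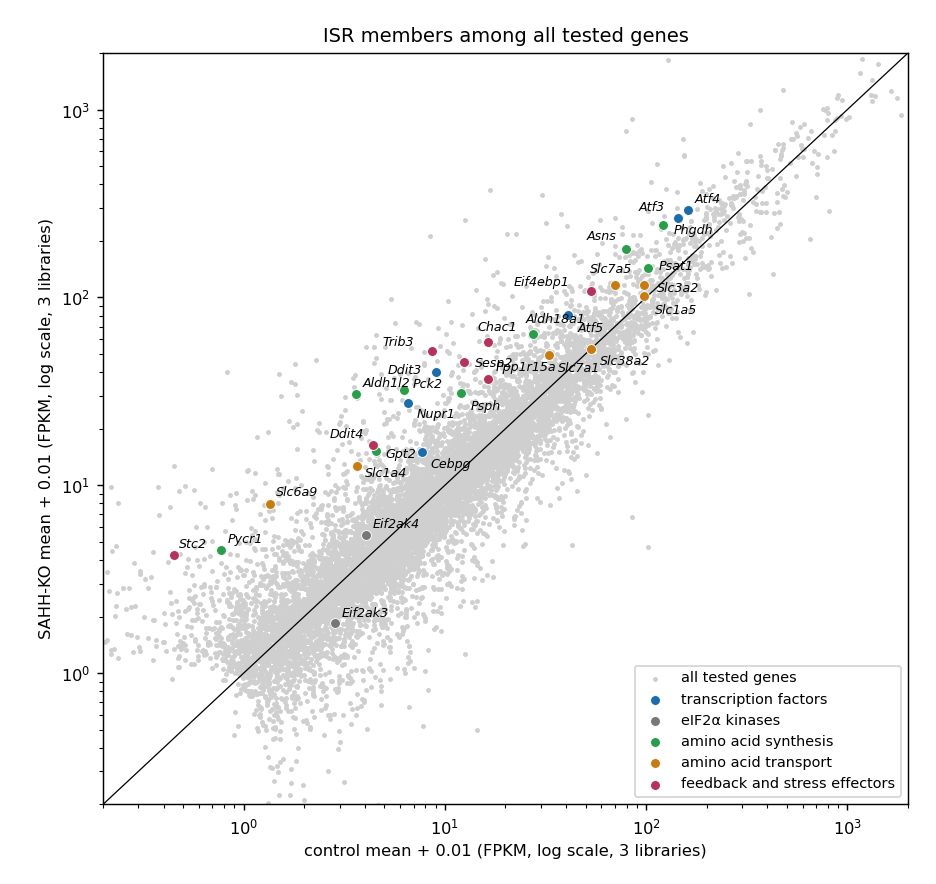
Mean FPKM of the 3 SAHH-KO libraries against that of the 3 control libraries on log axes from 0.2 to 2000, after adding 0.01, for all tested genes in grey (75 of them lie outside the axes) and the ISR genes coloured by role. The line marks equal means, Stc2, Pycr1 and Slc6a9 sit far above it at low control levels, and Slc1a5 and Slc38a2 lie on it at 97.7 and 53.0 FPKM in control.

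Of 7 amino acid transporter genes 5 rose and the others did not pass the test. Slc6a9 (ENSMUSG00000028542, chr4:117834506-117875198), a glycine transporter gene, rose from 1.52, 1.41 and 1.08 FPKM to 7.90, 7.39 and 8.67 FPKM (5.97-fold, log2 fold change 1.95, SE 0.107, limma adjusted p = 3.62e-06). Ccdc24 overlaps 30.2% of its exon bases on the other strand and was at most 0.0579 FPKM in any library. Slc1a4, a neutral amino acid transporter gene, rose 3.48-fold, from 3.47, 3.85 and 3.58 FPKM to 12.2, 11.9 and 13.7 FPKM. The genes with high control levels changed less. Slc7a5, the large neutral amino acid transporter, read 80.0, 67.0 and 62.8 FPKM in control and 115, 116 and 118 FPKM in SAHH-KO (1.66-fold, adjusted p = 0.000395), and Slc7a1, the cationic amino acid transporter, 36.3, 32.9 and 29.4 FPKM against 45.0, 51.0 and 51.2 FPKM (1.49-fold, adjusted p = 0.00167). Slc3a2, the heavy chain that pairs with SLC7A5 and other light chains, had groups that did not overlap, at 106, 88.6 and 97.5 FPKM against 117, 119.6 and 115 FPKM (1.20-fold, log2 fold change 0.27, SE 0.0845, adjusted p = 0.0279). This call was lost with TPM scaling (adjusted p = 0.353), with assigned-read scaling (0.326), without the filter (0.0536) and without any one library but control replicate 1 (0.0514 without control replicate 2, 0.0786 without control replicate 3, and 0.0683, 0.0867 and 0.0793 without SAHH-KO replicates 1, 2 and 3).

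The members without a call were abundant. Slc1a5, a glutamine and neutral amino acid transporter gene, read 109.8, 87.3 and 96.0 FPKM in control and 99.5, 101.9 and 105 FPKM in SAHH-KO (limma adjusted p = 0.563). Slc38a2, which takes up small neutral amino acids and is known to be induced by amino acid shortage, read 52.7, 58.0 and 48.2 FPKM against 45.9, 58.3 and 56.2 FPKM (adjusted p = 0.95). The SAHH-KO values of Slc1a5 lay within the range of the controls, and those of Slc38a2 spread over it on both sides. Their log2 fold changes of 0.07 and 0.00998 changed sign with TPM scaling (-0.092 and -0.15) and with assigned-read scaling (-0.090 and -0.15).

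All 7 tested feedback and effector genes rose, by 2.02-fold to 9.64-fold. Without Stc2, which passed the filter only through SAHH-KO, the other 6 rose by at most 6.03-fold. Among the genes that restrain the response, Trib3 (ENSMUSG00000032715, chr2:152337422-152344032), a pseudokinase that inhibits ATF4, went from 8.49, 7.98 and 9.27 FPKM to 58.7, 44.3 and 52.3 FPKM (6.03-fold, log2 fold change 2.45, SE 0.113, limma adjusted p = 1.44e-06). Ppp1r15a, which encodes GADD34 and directs the phosphatase that removes the phosphate from eIF2α, read 18.2, 14.5 and 16.6 FPKM in control and 38.1, 37.6 and 35.2 FPKM in SAHH-KO (2.25-fold, adjusted p = 3.19e-05). Eif4ebp1, a repressor of cap-dependent translation, rose 2.02-fold, from 58.3, 46.2 and 55.7 FPKM to 111, 99.8 and 113 FPKM. Every SAHH-KO library of these genes lay above every control.

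Of inhibitors of the growth kinase complex mTORC1, the set holds Sesn2 and Ddit4, and both rose. Sesn2, a leucine-sensing inhibitor, read 13.4, 11.6 and 12.2 FPKM in control and 42.2, 46.1 and 47.5 FPKM in SAHH-KO (3.65-fold, limma adjusted p = 1.81e-06). Ddit4, which encodes REDD1, read 4.46, 3.65 and 5.004 FPKM against 14.8, 17.4 and 16.8 FPKM (3.74-fold, adjusted p = 9.53e-06). In contrast to Nupr1, Ddit3 and Trib3, SAHH-KO replicate 1 was the lowest of its group for both. Chac1 (ENSMUSG00000027313, chr2:119351229-119354381), an enzyme that degrades glutathione, had little spread in either group, at 16.5, 16.1 and 16.6 FPKM against 57.3, 59.1 and 58.0 FPKM (3.54-fold, log2 fold change 1.76, SE 0.0692, adjusted p = 6.30e-07). Stc2 (ENSMUSG00000020303, chr11:31357307-31370074), a secreted glycoprotein of the stanniocalcin family, was nearly silent in control, at 0.542, 0.377 and 0.400 FPKM, and reached 3.62, 4.41 and 4.68 FPKM. With the pseudocount of 1 the log2 fold change came to 1.86 (SE 0.113, adjusted p = 5.83e-06), and to 3.26 with voom on the recovered reads. Stc2 passed the filter only through SAHH-KO, so it had to differ whatever its p-value.

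Genes next to these in the pathway were counted in lists named by function. Beside each list stand the shares over all tested genes, 26.4% called higher and 26.8% called lower. Of 20 aminoacyl-tRNA synthetase genes, which load tRNAs and many of which are known ATF4 targets, 15 rose, none was lower and 5 did not pass the test, with a median log2 fold change of 0.58. Aars rose from 28.7 ± 2.34 to 61.4 ± 2.13 FPKM (SD, n = 3), Nars from 190 ± 10.7 to 367 ± 3.56, Sars from 92.5 ± 2.26 to 176 ± 7.80 and Wars, which interferon also induces, from 55.1 ± 0.344 to 104 ± 6.16 FPKM (limma adjusted p at most 2.65e-05). Of 25 other genes reported as ATF4 targets 20 were tested, and 13 rose and 4 fell (median 0.58). Cth, which makes cysteine from cystathionine, rose 5.12-fold (log2 fold change 2.30, SE 0.113, adjusted p = 2.07e-06), and Vegfa, an angiogenic factor, 3.28-fold, from 4.20 ± 0.274 to 13.8 ± 0.727 FPKM. Slc7a11, the cystine transporter that pairs with the product of Slc3a2, fell to 0.396 of its control mean (log2 fold change -1.26, SE 0.0879, adjusted p = 1.19e-05). Among the untested genes of this list, named after their values were seen, Gdf15, a secreted stress factor, lay at 0.129, 0.165 and 0.362 FPKM against 2.04, 0.887 and 1.33 FPKM, and Fgf21 had 0 reads.

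**Figure D4:**
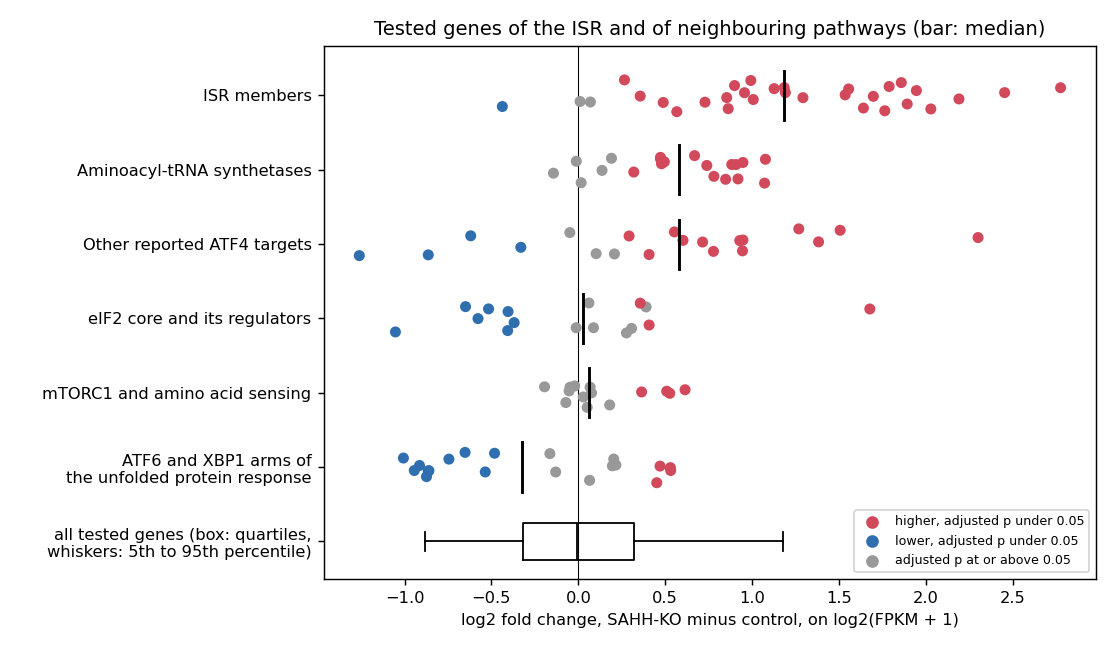
Log2 fold changes of the tested genes in the ISR set and in 5 neighbouring lists, each point a gene coloured by its call and each bar a median, above a box of all tested genes. The medians run from 1.18 for the ISR genes and 0.58 for the synthetases to -0.32 for the ATF6 and XBP1 arms.

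Genes of the eIF2 core and its regulators, and those of the endoplasmic reticulum, moved in both directions. Of 16 genes of the eIF2 core and its regulators 3 rose, 7 fell and 6 did not pass the test (median 0.02). Eif2b1 and Eif2b4, subunits of the exchange factor eIF2B that phosphorylated eIF2 blocks, fell to 0.464 and 0.618 of control (log2 fold changes -1.05 and -0.65, limma adjusted p = 8.34e-05 and 0.000201). Ppp1r15b, the constitutive counterpart of Ppp1r15a, rose 1.34-fold (adjusted p = 0.00275). In the ATF6 and XBP1 arms of the unfolded protein response 4 of 20 genes rose and 10 fell (median -0.32). Those that rose, named after their values were seen, were Xbp1 (1.45-fold), Atf6 (1.395-fold), Ern1 (1.47-fold) and Sel1l (1.47-fold). Their limma adjusted p-values were at most 0.00653, so the genes of Xbp1 and Atf6 themselves did not fall with the chaperones. The chaperone genes Hsp90b1, Calr, Pdia4 and Dnajc3 fell to 0.495, 0.531, 0.542 and 0.575 of control, with adjusted p-values of at most 0.000174. Hspa5, the chaperone BiP, was named after its values were seen and lay at 400.5, 424 and 445 FPKM against 479, 502 and 472 FPKM (adjusted p = 0.0511). Shares of 26.4% higher and 26.8% lower among all tested genes apply to these counts too. Other genes overlap 11.4% to 15.7% of the exon bases of Ppp1r15b, Aars and Hsp90b1, and none of those partners exceeded 0.621 FPKM in a library. The partner of Aars, Exosc6, lies on the same strand and was at 0 in all libraries. Whether its reads were counted for Aars was not tested. Nars and Pdia4 each stand in 2 of these lists.

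**Figure D5:**
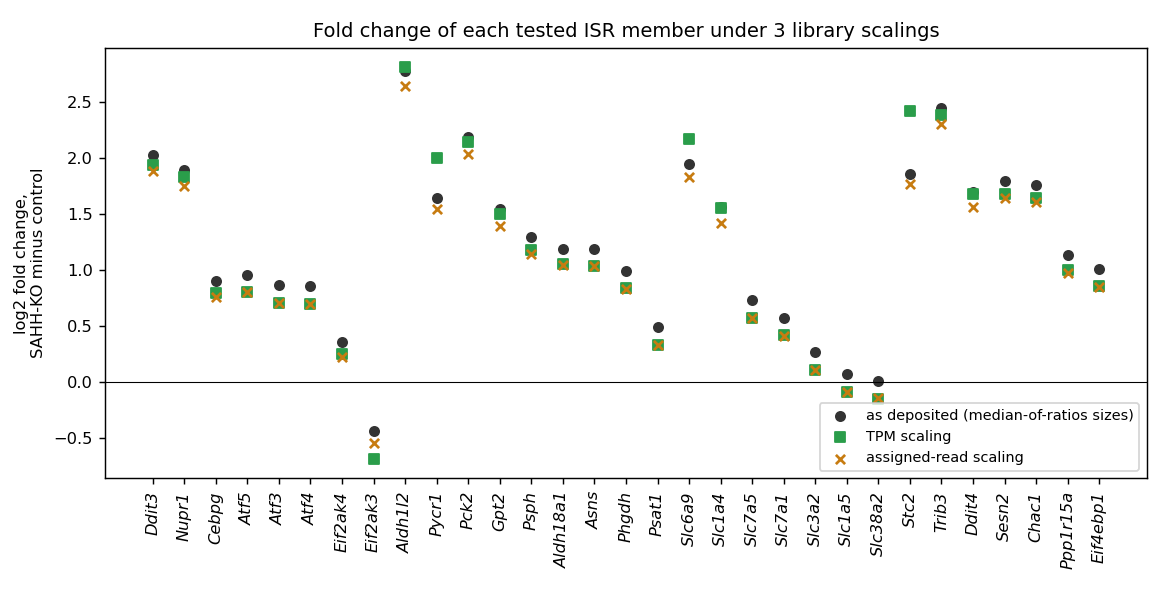
Log2 fold change of each tested ISR gene, SAHH-KO minus control, with the deposited scaling (circles), TPM scaling (squares) and scaling by assigned reads (crosses), each with a pseudocount of 1. Slc1a5 and Slc38a2 change sign between scalings, and the other 29 genes keep theirs.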

How the data were processed

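RNA-seq of 6 libraries was analysed, 3 control and 3 SAHH-KO. The authors deposited FPKM values per gene, with gene lengths and GRCm38 coordinates. STAR, featureCounts, Trim Galore and FastQC are named, per the submitters' processing notes, with no order. Versions, annotation release, strand setting and the step to FPKM are not given in the sources used here. FPKM times gene length was a whole multiple of 1 step per library (100% of values above 0, within 0.01 of a read), which gave reads per gene and library sizes. Those sizes equalled median-of-ratios size factors, and were 1.055 to 1.072 times the assigned reads in control and 0.937 to 0.960 times in SAHH-KO. The limit that a count of 0 allows (3 reads) was 0.168 to 0.197 FPKM at a gene length of 1 kb, for counting error alone.

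Genes with at least 1 FPKM in at least 3 libraries were tested with limma 3.58.1 in R 4.3.3 (lmFit, eBayes with an intensity trend, group as the only term, two-sided) on log2(FPKM + 1), with Benjamini-Hochberg adjustment over all tested genes, and the code was tested on simulated data. The pseudocount understates changes of low genes, so ratios of mean FPKM are given as folds. Alternatives were other pseudocounts, filters and scalings, no trend, voom on the recovered reads, a replicate block and leaving out each library. The members, lists and tests were chosen with earlier results of these data known, so no list was tested as a set. Named are all 32 genes, Ahcy, and up to 4 genes past the threshold of each neighbouring list by smallest p; others are marked. No 2 libraries were identical, and chi-square per degree of freedom between libraries of a group was 4.50 to 35.3. Each library was entered as 1 replicate. The chi-square shows a spread beyond counting error, which library preparation alone could give, so it cannot show that replicates are separate animals or cultures. Exon overlaps and shared 50-base words were taken from GENCODE M21, in which all 33 rows had the same start and end.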

Additional observations from a re-analysis of the deposited data

How the results depend on the processing

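Across 15 alternatives, 28 of the 29 called ISR genes kept their direction and their side of the threshold wherever they were tested. The exception was Slc3a2. The 28 include Stc2 and Pycr1, which passed the filter only through SAHH-KO, so their direction was fixed wherever that filter was used. Stc2 and Pycr1 were not tested when a SAHH-KO library was left out, nor were Stc2, Pycr1 and Eif2ak3 with a filter at 5 FPKM, where 0 ISR genes were called lower and 2 of the mTORC1 list were called, since fewer genes were tested. The median log2 fold change of the ISR genes was 0.97 with a pseudocount of 5, 1.03 with TPM scaling, 1.03 with assigned-read scaling, and 1.105 to 1.21 without each library in turn. Slc1a5 had log2 fold changes of -0.092 with TPM and -0.090 with assigned-read scaling, and -0.0076 to 0.16 without each library in turn. Slc38a2 had -0.15 with TPM and -0.15 with assigned-read scaling, and -0.055 to 0.12 without each library. The counts of ISR genes called higher lay between 25 and 28 in all alternatives. Whether the replicate numbers pair the libraries was not settled. Libraries with the same number had correlations, taken on what remains after each group's mean is removed, of 0.0955, 0.101 and -0.0056. Control replicates 1 and 2 correlated best with their own number and control replicate 3 did not. What remains sums to 0 within a group, which ties these correlations to one another, so they cannot decide the question. With the replicate block 28 ISR genes were called higher and 1 lower, and 2729 and 2761 of all genes. Genes near the filter rest on few reads, down to 32 in a library for Stc2.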

Other observations

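Genes of mTORC1 and of its amino acid sensors, on which several ISR effectors act, had a median near that of all tested genes. Of 17 genes 14 were tested, and 4 rose, none was lower and 10 did not pass the test (median log2 fold change 0.06, limma), where 26.4% of all tested genes were called higher. Mtor, the kinase itself, read 11.2, 8.67 and 8.81 FPKM in control and 13.9, 13.9 and 14.1 FPKM in SAHH-KO (1.46-fold, limma adjusted p = 0.00381). Rraga, a GTPase that brings mTORC1 to the lysosome, rose 1.29-fold (adjusted p = 0.00388). Nprl3, a subunit of the complex that restrains mTORC1 when amino acids are short, rose 1.58-fold (adjusted p = 0.00383), and Mpg, at 1.43 to 2.24 FPKM, covers 17.7% of its exon bases on the other strand. Castor1, an arginine sensor, went from 1.014 ± 0.375 to 2.06 ± 0.370 FPKM (SD, n = 3, limma adjusted p = 0.0120). Inhibitors of mTORC1 other than those in the ISR set are named after their values were seen. Deptor, below the filter and not tested, lay at 0.579, 0.454 and 0.618 FPKM in control against 0.210, 0.178 and 0.212 FPKM. Tsc1 (0.832 times control, limma adjusted p = 0.102) and Tsc2 (1.02 times, 0.835) did not pass the test. Sesn1 lay at 1.15, 0.996 and 0.997 FPKM against 1.30, 1.06 and 1.09 FPKM (limma adjusted p = 0.604), and Sesn3 was listed at 0 in 5 of 6 libraries.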
